A study of Mus musculus with 2 samples.

Results

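Receptor tyrosine kinases, the growth factors that bind them and the IGF binding proteins were followed in 2 RNA-seq libraries of mouse embryonic stem (ES) cells. The genes were taken by name, as 26 receptors and 11 ligands, together with every row of the expression table named Igfbp and a single digit. The table held 24 of the receptors, 9 of the ligands and 6 IGF binding proteins, which made 39 of its 14261 rows. Fgfr3, Fgfr4, Areg and Pdgfb were not among the rows. Both cultures were of the cells labelled TRE-ESC, grown in suspension in low adsorption dishes in N2B27+2i+LIF. This medium keeps mouse ES cells naive by means of the cytokine LIF and of inhibitors of GSK3 and of MEK, a kinase downstream of the receptors described here. One culture, TRE-suspend-36h, received no doxycycline (dox) and the other, TRE-suspend-adox-36h, received dox, a drug that switches tetracycline-controlled transgenes on or off. Both are labelled 36 h. The sources used here do not give the strain, the structure of the transgene or whether the line is 1 clone.

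There was 1 library in each group. No test, SD or p-value could be computed, and each difference below is one between 2 libraries. The deposited values are whole numbers on a normalized scale with the same quartiles of 14, 62 and 184 in both libraries, so the depth of each library is unknown. Jun, the gene that the series title says was induced, stood at 55 without dox and 3821 with dox. The ES cell marker Pou5f1 stood at 3230 and 3572, while 7 of 10 ES cell markers were lower with dox by 2-fold or more, against 3.24% of all genes with both values at 50 or above. None of 12 fibroblast markers reached 50 in either library, with summed values of 33 and 89. The value of 7 of them was larger with dox, most of all Col3a1 at 2 and 39, and Dcn, Lum, Prrx1 and Twist2 were listed at 0 in both. None of 4 primitive endoderm markers in the table reached it either, with sums of 20 and 31. Blood and endothelial markers summed to 238 and 280 over 6 rows, most of it Pecam1 at 205 and 152. Cd34 stood at 14 and 13, Cd68 at 19 and 96 and Ptprc at 0 and 19, and Lyz2 and Emcn were listed at 0 in both. Trophoblast markers summed to 225 and 596 over 8 rows, of which Krt7 held 0 and 374. The part of such cells in the results below was not tested.

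Receptor tyrosine kinases span the cell membrane, bind a growth factor outside the cell and phosphorylate tyrosines inside it once they are paired. Adaptor proteins then dock on those tyrosines and pass the signal to RAS and ERK, to PI3 kinase and to phospholipase C gamma. In mouse ES cells the pair of FGF4 and FGFR1 is the best known, since its ERK signal moves cells out of the naive state. IGF binding proteins are secreted carriers that hold IGF1 and IGF2 and so set how much of them reaches the receptors.

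The series concerns c-Jun, a subunit of AP-1, whose DNA site is TGANTCA. Start regions of the genes were therefore read from the RefSeq promoter table for GRCm38, the assembly that mm10 names. Each of its windows runs from 250 bases before a start to 50 after it. Of the 39 genes, 32 had a window and some had several, for 42 windows in all. The letters TGANTCA, which read the same on both strands, stood in 4 of these 42 windows (9.52%) and in 7.81% of all 32851 windows. The related CRE letters TGACGTCA, which do not contain TGANTCA, stood in 1 of the 42, that of Flt1, and in 1.79% of all windows. The share of windows with either motif was thus near that of all genes. The 4 TGANTCA matches are shown with 11 bases on each side, 5′ to 3′ on the strand of the gene and with the match in capitals, because Met, Ddr1 and Igfbp2 had the largest ratios among the genes with a value above 0 in both libraries. Each line gives the position in GRCm38.
Met, chr6:17463892-17463920, plus strand: tgttgcccggcTGAGTCAcgggccgggca
Ddr1, chr17:35702178-35702206, minus strand: actgggcagtgTGAGTCAcgggcgtgagg
Igfbp2, chr1:72825337-72825365, plus strand: gaaacaaaactTGAGTCAgtgaccaccgg
Ror2, chr13:53286197-53286225, minus strand: gtcgctgccctTGAGTCActccggcagag
All 4 carry the same form, TGAGTCA. The match begins 54 bases before the RefSeq start in Met, 90 in Ror2, 151 before the third of 4 annotated starts in Ddr1 and 39 before the second of 2 starts in Igfbp2. In Met, Ddr1 and Igfbp2 it overlaps an annotated exon in GENCODE M21, whose gene and transcript were not read, and in Ror2 it overlaps none. By position, the matches of Met, Ddr1 and Igfbp2 lie inside the GENCODE span of the gene itself, and that of Ror2 lies outside. The 4 genes did not share a direction: Met and Ddr1 were higher with dox, Igfbp2 was lower and Ror2 was within 2-fold. A match is a description of these letters and not a measured binding site.

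To show how the start regions differ, bases of the most upstream window are printed for the 6 genes with the largest ratios that had a window. They end just before the first annotated exon in the window, or before the RefSeq start where no exon comes first. A stretch therefore need not touch the first GENCODE exon of its gene, as in Igfbp2, Igfbp6 and Gas6. CpG dinucleotides, which are dense in the promoters of many widely used genes, are in capitals.
Met, chr6:17463707-17463799, plus strand: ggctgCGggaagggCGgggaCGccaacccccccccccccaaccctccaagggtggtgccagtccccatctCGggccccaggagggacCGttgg
Igfbp2, chr1:72824330-72824479, plus strand: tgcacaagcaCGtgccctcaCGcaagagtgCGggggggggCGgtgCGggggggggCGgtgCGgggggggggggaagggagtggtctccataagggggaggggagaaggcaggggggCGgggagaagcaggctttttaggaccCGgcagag
Ddr1, chr17:35704622-35704771, minus strand: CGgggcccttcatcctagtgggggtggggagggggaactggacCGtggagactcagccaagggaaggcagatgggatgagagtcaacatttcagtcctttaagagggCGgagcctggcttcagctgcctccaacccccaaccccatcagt
Igfbp6, chr15:102144036-102144185, plus strand: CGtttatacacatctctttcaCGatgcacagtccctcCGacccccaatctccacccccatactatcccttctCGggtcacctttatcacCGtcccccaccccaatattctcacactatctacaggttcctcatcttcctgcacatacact
Gas6, chr8:13494536-13494685, minus strand: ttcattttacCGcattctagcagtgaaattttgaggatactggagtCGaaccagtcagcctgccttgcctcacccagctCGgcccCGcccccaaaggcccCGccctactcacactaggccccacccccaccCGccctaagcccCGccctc
Ryk, chr9:102834767-102834916, plus strand: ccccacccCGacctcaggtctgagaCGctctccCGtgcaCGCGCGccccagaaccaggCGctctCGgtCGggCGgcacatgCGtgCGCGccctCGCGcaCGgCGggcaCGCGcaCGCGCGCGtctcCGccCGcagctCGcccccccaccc
Over 150 bases the stretch before Ryk holds 26 CpGs, against 9 before Igfbp2, 7 before Gas6, 5 before Igfbp6 and 3 before Ddr1, and the 93 bases before Met hold 5. Over the whole window of the most upstream start, the median ratio of observed to expected CpGs was 0.66 for the 32 genes. It was 0.38 for all 32851 windows, which belong to 27025 genes, so that background is not 1 window per gene. Among the 32 genes the ratio ran from 0.10 in Igf2 to 1.27 in Ryk.

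For each gene the log2 ratio is that of the value with dox plus 10 over the value without dox plus 10. A gene was counted at a ratio of 2-fold or more, where its larger value was at least 50, which is called the floor here. Of the 39 genes, 19 reached the floor, and among these 10 were higher with dox by this rule, 2 were lower and 7 were within 2-fold. Over all 8547 genes at the floor, 9.23% were higher and 5.49% lower. Of the 10 higher genes, 7 reached the floor through the library with dox alone, and both lower genes reached it through the other library alone, so these had to differ. Where both values were at least 50, 3 of 9 genes were higher and 0 lower, against 4.92% and 3.24% of the 7046 such genes of the table. With no floor, the value was larger with dox for 27 of the 39 genes, smaller for 11 and equal for 1, whereas over all rows it was larger for 42.4%, smaller for 51.0% and equal for 6.56%. Of the 39, 20 were under the floor. Rows listed at 0 numbered 1372 without dox and 857 with dox, and a background of genes of like value was not tested. The median log2 ratio of the 19 genes was 1.10 and that of all 8547 was −0.08. Of the 19, 7 reached the floor through the library with dox alone and 3 through the other alone. This median thus depends on the floor. Among the 9 genes with both values at least 50, the log2 ratios ran from −0.96 in Kit to 1.63 in Ryk. In such bulk samples, fewer cells of a type and less RNA per cell cannot be told apart.

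**Figure D1:**
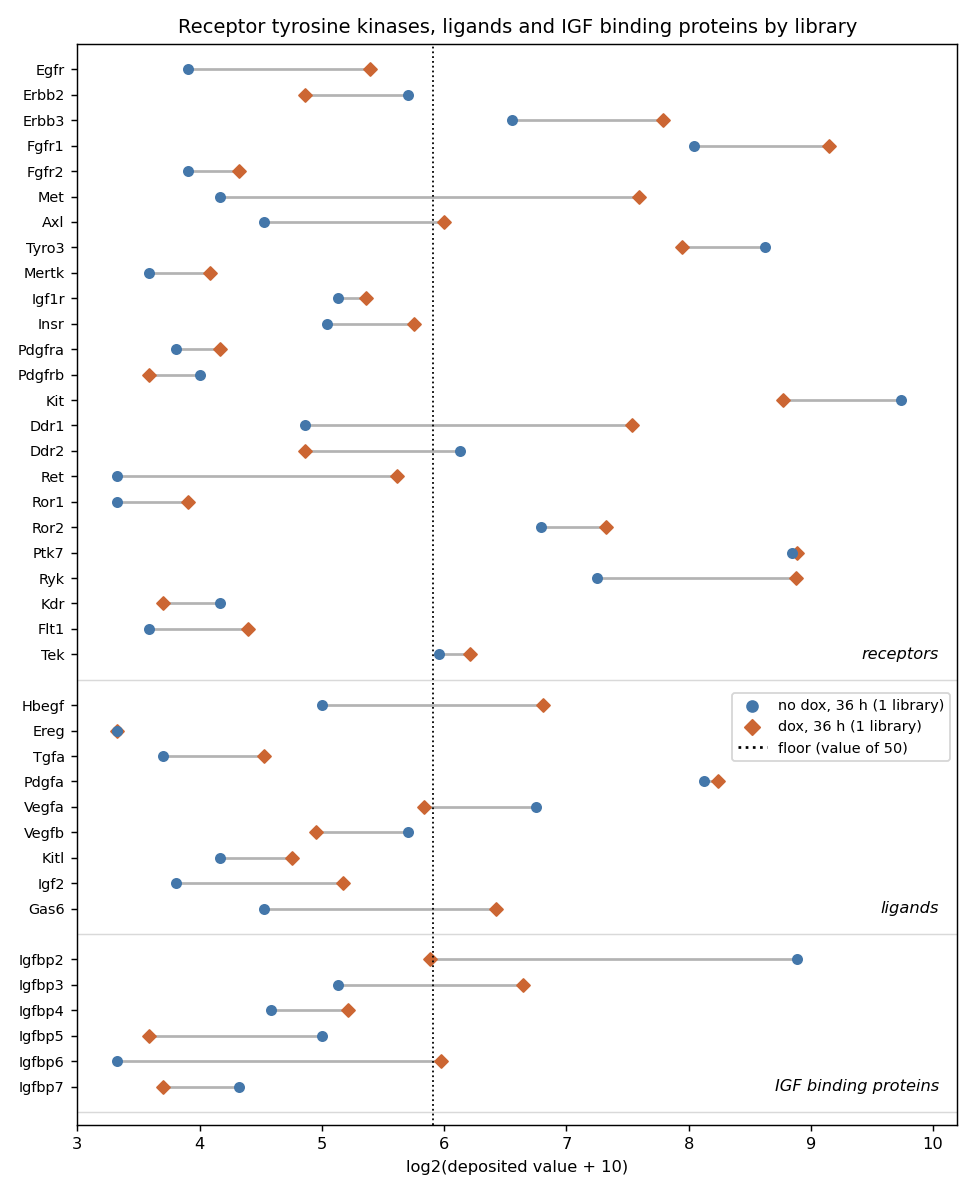
Values of the 39 genes in the library without dox (circles) and with dox (diamonds), 1 library each, as log2 of the deposited value plus 10, by role. The dotted line marks the floor of 50. The longest moves to the right with dox are those of Met, Ddr1 and Igfbp6 and the longest to the left is that of Igfbp2, while 20 genes lie left of the floor in both libraries.

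Among the receptors 12 of 24 reached the floor, 6 of them higher, 1 lower and 5 within 2-fold, and their median log2 ratio was 0.82. Over all genes at the floor 9.23% were higher and 5.49% lower. Of the 6 higher receptors, 3 reached the floor through the library with dox alone, and the lower receptor through the other library alone. Where both values were at least 50, 3 of 8 receptors were higher and 0 lower. The receptor with the largest ratio was Met, which encodes the receptor of hepatocyte growth factor. Met stood at 8 without dox and 183 with dox, 10.7-fold higher on the scale with 10 added, and ranked 67 from the top among the 8547 genes. The gene lies on the plus strand of chromosome 6. Its ligand gene Hgf, named after its values were seen, was listed at 0 in both libraries.

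Both discoidin domain receptors, which bind collagen rather than a soluble growth factor, were called, in opposite directions. Ddr1 stood at 19 and 176, 6.41-fold higher with dox. Ddr2 stood at 60 and 19, 2.41-fold lower. The pair thus changed places. Per kb of the longest annotated transcript, Ddr1 made up 41.3% of their summed value without dox and 95.4% with dox. Whether the deposited values were already divided by length is not known, and with no division these shares were 24.1% and 90.3%.

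The TAM receptors Axl, Tyro3 and Mertk bind GAS6, and Tyro3 and Mertk also bind protein S. These ligands bridge them to phosphatidylserine on dying cells. Axl stood at 13 and 54, 2.78-fold higher with dox. Tyro3 stood at 385 and 237, which is 1.60-fold lower and so within 2-fold. Mertk, under the floor, stood at 2 and 7. Tyro3 was the largest member in both libraries, with 96.1% of the summed value per kb without dox and 78.8% with dox, while the share of Axl was 3.39% and 18.8%.

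In the EGF receptor family, Erbb3 was the member at the floor. It encodes a receptor with little kinase activity of its own that binds neuregulins and signals through its partners. Erbb3 stood at 84 and 212, 2.36-fold higher with dox. Its usual partner Erbb2, which has no known soluble ligand, stood at 42 and 19, and Egfr at 5 and 32. Both were under the floor and differed in opposite directions. Erbb3 made up 61.2% of the family's summed value per kb without dox and 83.6% with dox, and Erbb2 36.7% and 8.99%.

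Fgfr1, the main FGF receptor of ES cells, stood at 254 and 557, 2.15-fold higher with dox. Fgfr2 stood at 5 and 10. Fgfr1 thus held nearly all of the summed value per kb of the 2 receptors in the table, 97.8% without dox and 98.0% with dox. Its log2 ratio of 1.10 was just past the threshold, and it was 0.9987 with the trend on transcript length removed and 0.9976 with a pseudocount of 50.

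Ror1, Ror2, Ptk7 and Ryk encode receptors that bind Wnt proteins or act beside Frizzled receptors, and PTK7 and RYK lack kinase activity. Ryk stood at 142 and 461, 3.10-fold higher with dox, and it was the gene with the largest ratio among those with both values at the floor. Ptk7 stood at 449 and 463 and was nearly level, with a log2 ratio of 0.04. Ror2 stood at 101 and 150, 1.44-fold higher and within 2-fold. Ror1 was listed at 0 and 5. Without dox Ptk7 led this group per kb, with 59.7% of the summed value, and with dox Ryk did, with 50.4%. With no division by length, Ptk7 and Ryk were nearly level with dox, at 463 and 461.

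Kit, the receptor of stem cell factor, stood at 842 without dox and 427 with dox. It had the highest value per kb of the receptors without dox and was 1.95-fold lower with dox, short of the 2-fold threshold. Its log2 ratio of −0.96 became −1.08 with the trend on transcript length removed, which is past it. The related Pdgfra and Pdgfrb, receptors of platelet-derived growth factors, stood at 4 and 8 and at 6 and 2. Tek, the angiopoietin receptor, stood at 52 and 64, while the VEGF receptor genes Kdr, at 8 and 3, and Flt1, at 2 and 11, were under the floor. The receptors of insulin and IGF1 were under it as well, with Insr at 23 and 44 and Igf1r at 25 and 31. Ret, which binds GDNF family ligands together with a GFRA coreceptor, was listed at 0 and 39. The coreceptor genes Gfra1, at 1 and 4, and Gfra2, at 0 and 1, were named after their values were seen.

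**Figure D2:**
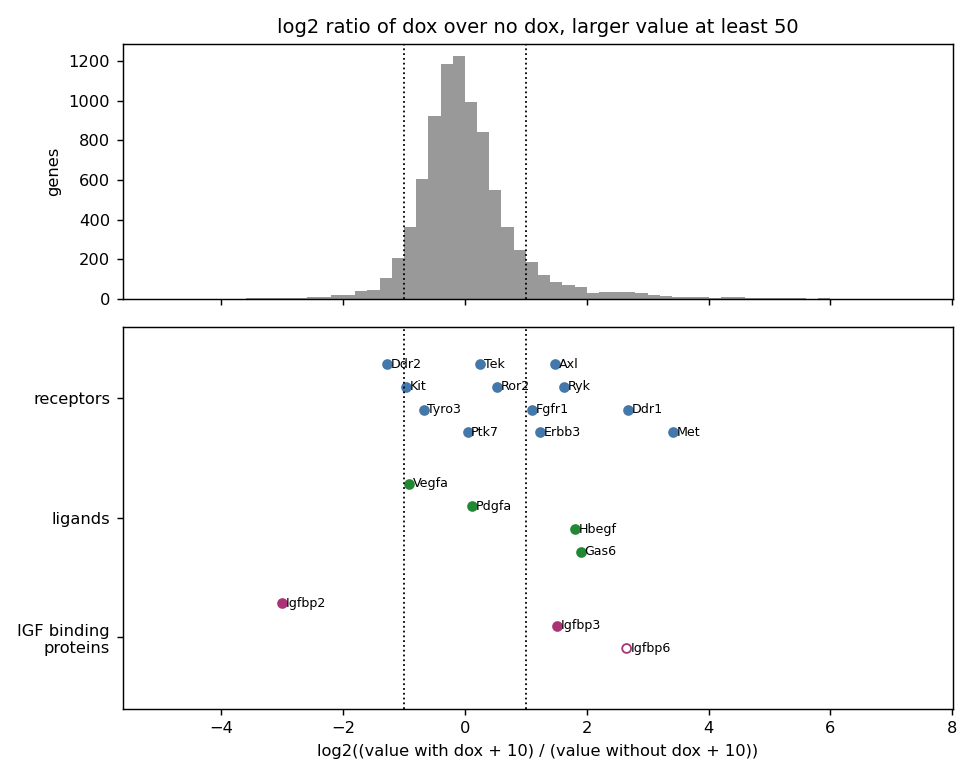
Above, the log2 ratios of all 8547 genes with a larger value of at least 50. Below, those of the 19 receptor, ligand and IGF binding protein genes among them, by role, with dotted lines at 2-fold and an open circle for Igfbp6, listed at 0 without dox. Met, Ddr1 and Igfbp6 lie far to the right, and Igfbp2 lies far to the left.

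Of the 9 ligand genes in the table, 4 reached the floor. Of these 2 were higher and 0 lower, against 9.23% and 5.49% of all genes at the floor. The median log2 ratio of the 4 was 0.96. Only 1 ligand had both values at 50 or more, and it was within 2-fold. Gas6, the ligand of the TAM receptors, stood at 13 and 76, 3.74-fold higher with dox. Hbegf, which encodes a membrane-anchored ligand of EGFR and ERBB4, stood at 22 and 102, 3.50-fold higher. Tgfa, another EGFR ligand, stood at 3 and 13 and Ereg was listed at 0 in both libraries. Both called ligands were under the floor without dox.

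Pdgfa, which encodes a chain of platelet-derived growth factor, stood at 269 and 292 and was nearly level. It was the ligand with the highest value per kb in both libraries, at 131 and 142 per kb, while the value of its receptor gene Pdgfra stayed at 8 or less. The angiogenic ligand gene Vegfa stood at 98 and 47, 1.89-fold lower and within 2-fold, and Vegfb at 42 and 21. With a pseudocount of 1 Vegfa passed the threshold, at a log2 ratio of −1.04. Kitl, which encodes stem cell factor, stood at 8 and 17, under the floor. The imprinted growth factor gene Igf2 stood at 4 and 26.

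The IGF binding proteins held the lowest ratio of all 39 genes. Igfbp2, which encodes a carrier of both IGFs, stood at 464 without dox and 49 with dox, 8.03-fold lower. It ranked 11 from the lowest of the 8547 genes. Igfbp3, the main IGF carrier of serum, stood at 25 and 90, 2.86-fold higher with dox. Igfbp6, whose protein prefers IGF2, had values of 0 and 53, and no fold is given against a value of 0. The remaining members were under the floor, Igfbp4 at 14 and 27, Igfbp5 at 22 and 2 and Igfbp7 at 10 and 3.

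The value was larger with dox for 3 of the 6 binding proteins and smaller for 3, near the shares over all rows given above. The makeup of the family's summed value differed between the libraries. Per kb, Igfbp2 made up 93.2% of its summed value without dox and 28.4% with dox, where Igfbp6 made up 36.1% and Igfbp3 28.1%. With no division by length the order of the latter was the opposite, with 23.7% for Igfbp6 and 40.2% for Igfbp3, and Igfbp2 made up 86.7% without dox and 21.9% with dox. Igfbp3 and Igfbp6 reached the floor through the library with dox alone and Igfbp2 through the other alone, so all 3 had to differ. Over all genes at the floor 9.23% were higher and 5.49% lower. The median log2 ratio of the 3, 1.51, thus depends on the floor, and it was −0.75 over 2 genes without Igfbp6. Igf1, the other ligand that these proteins hold, was listed at 0 in both libraries, a gene named after its values were seen.

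**Figure D3:**
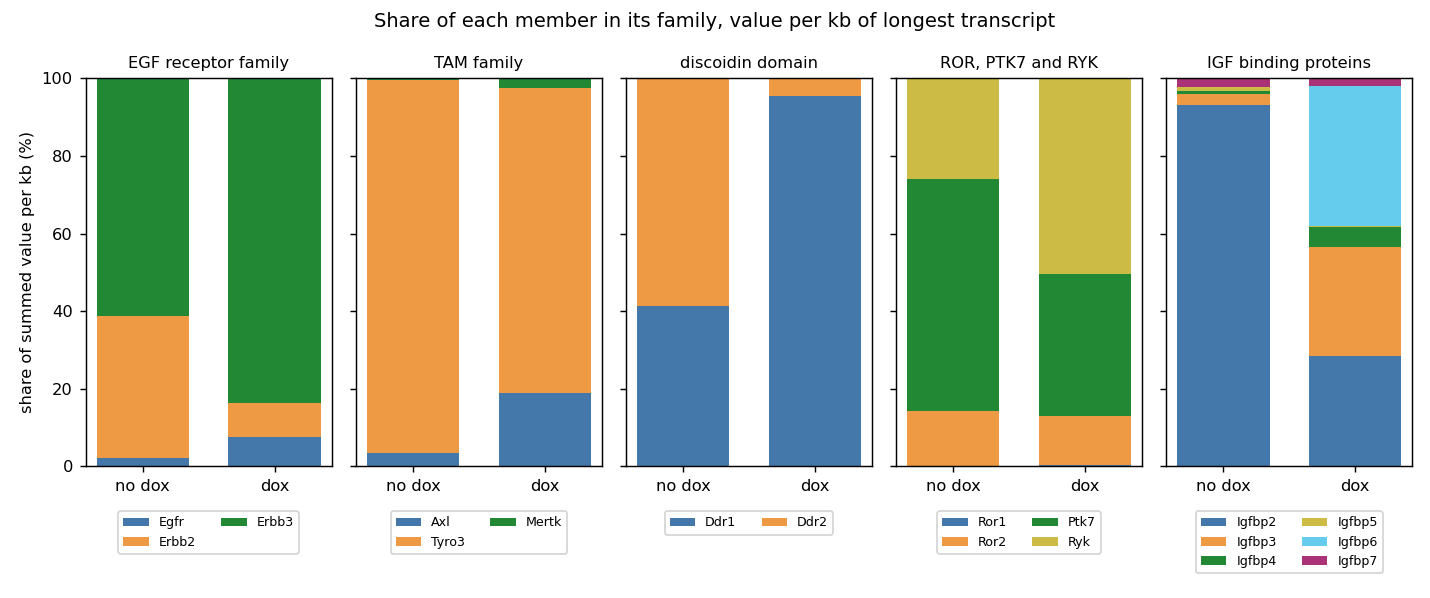
Share of each gene in the summed value per kb of longest transcript of its family, without and with dox, for 5 families (1 library each). Ddr1 goes from 41.3% to 95.4% of the discoidin domain pair and Igfbp2 from 93.2% to 28.4% of the IGF binding proteins, while Tyro3 is the largest of the TAM family at 96.1% and 78.8%.

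Ordered by value per kb of the longest transcript, the highest of the 39 genes without dox were Igfbp2 at 355 per kb, Kit at 161, Pdgfa at 131, Ptk7 at 106 and Tyro3 at 86.3. With dox they were Ryk at 150 per kb, Pdgfa at 142, Fgfr1 at 110, Ptk7 at 109 and Kit at 81.5. Ryk went from rank 7 to rank 1 and Igfbp2 from rank 1 to rank 10. Met went from rank 27 to rank 15 and Ddr1 from rank 19 to rank 8. These levels and the shares per kb are approximate, since the transcript in use may be shorter than the longest one and the authors' normalization may already include length.

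Across the 8472 genes with a length, the log2 ratio was higher for longer transcripts (Spearman rho of 0.27, given as a description). The median length was 4527 bases over the 39 genes, 20 of them under the floor, against 3566 for genes at the floor. By role it was 5332 for receptors, 3451 for ligands and 1864 for IGF binding proteins. Only the receptors were thus longer than the genes at the floor. With the trend on length removed, 9 of the 19 genes were higher and 3 lower, against 8.70% and 5.02% of all genes with a length. Fgfr1 and Kit were the 2 genes whose call differed, as given above. With a pseudocount of 50, 6 of the 19 genes were higher, namely Met, Ddr1, Ryk, Hbegf, Gas6 and Igfbp6, and 1 was lower, Igfbp2. Over all 8547 genes 5.83% were then higher and 2.00% lower. The plot of alternative settings shows these genes except Igfbp6. Gas6 was then exactly at the threshold. Besides Fgfr1, the genes that lost their call under that pseudocount were Erbb3, with a log2 ratio of 0.97, Igfbp3 with 0.90, Axl with 0.72 and Ddr2 with −0.67.

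**Figure D4:**
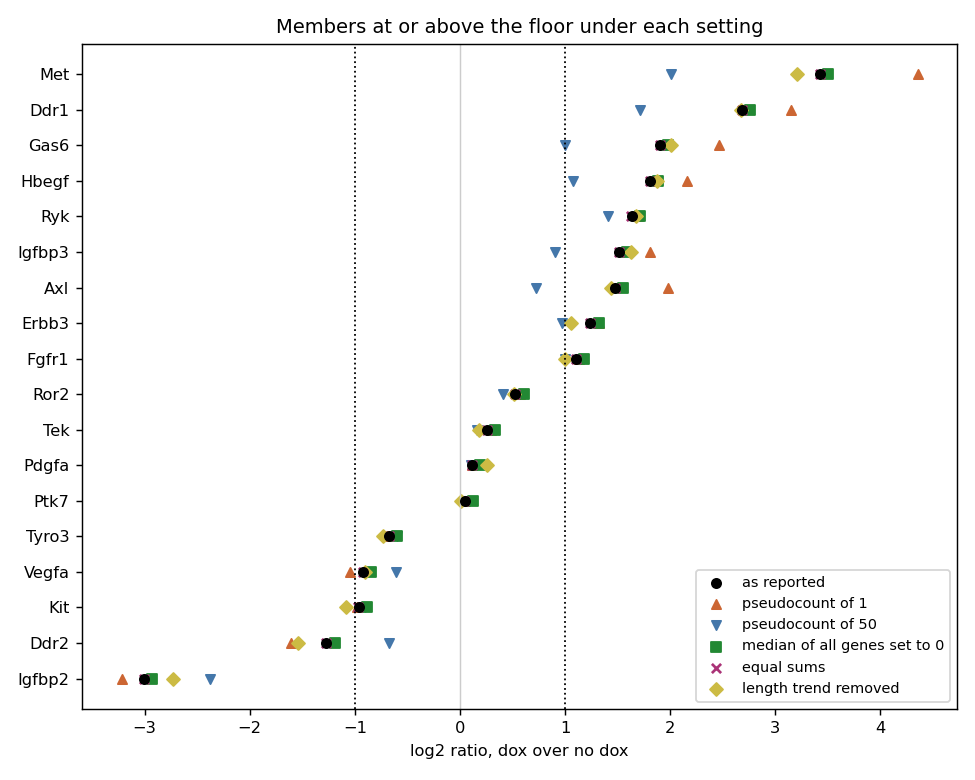
Log2 ratio, dox over no dox, of the 18 genes at the floor with a value above 0 in both libraries, as reported and under 5 alternatives, with dotted lines at 2-fold. None of the 18 changes sign under these, though a change of pseudocount alone cannot turn the sign. Met ranges from 2.01 to 4.35 with the pseudocount.

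Other genes of the pathway were described from lists of related function, beside the same background of 9.23% higher and 5.49% lower. For genes with both values at least 50 that background was 4.92% higher and 3.24% lower. Of the other receptor tyrosine kinases 7 of 18 were in the table and 2 reached the floor, 1 higher and 1 within 2-fold. The one within 2-fold was Lmtk2, at 263 and 214, named after its values were seen. Csf1r, the receptor of the macrophage growth factor CSF1, stood at 1 and 111, a log2 ratio of 3.46. It reached the floor through the library with dox alone. Of the macrophage and blood genes among the markers, Cd68 stood at 19 and 96 and Ptprc, under the floor, at 0 and 19, and Lyz2 was listed at 0 in both libraries. Of the other ligand genes 30 of 48 were in the table and 7 reached the floor, 1 of them higher and 2 lower. Where both values were at least 50, 1 of 5 was higher and 1 lower. Fgf4, the ligand of FGFR1 in ES cells, stood at 631 and 129, 4.61-fold lower, opposite in direction to Fgfr1. Fgf10 stood at 98 and 31 and was also lower. Pdgfc, which encodes another ligand chain of the PDGF receptors, stood at 212 and 444, 2.05-fold higher. Among partners of the receptors, named after their values were seen, the neuregulin gene Nrg1 was listed at 0 and 19 and Pros1, which encodes protein S, stood at 58 and 42.

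Coreceptors and ligand-processing genes had 5 of 15 genes at the floor higher and 0 lower, and their median log2 ratio was 0.42. Of the 5 higher, 3 reached the floor through the library with dox alone and so had to differ. Where both values were at least 50, 2 of 11 genes were higher and 0 lower, against 4.92% and 3.24% of all such genes. Nrp2, which encodes the VEGF and semaphorin coreceptor neuropilin 2, stood at 34 and 446, 10.4-fold higher with dox. The glypican gene Gpc1, whose heparan sulfate chains hold FGFs, stood at 20 and 196, 6.87-fold higher. Furin, the gene of a protease that cuts growth factor and receptor precursors, stood at 156 and 518, and Lrp1, which encodes an endocytic receptor, at 137 and 290. The fifth was Rhbdf1, at 24 and 79, named after its values were seen.

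Adaptors and proximal effectors had 6 of 30 genes at the floor higher and 1 lower, with 23 within 2-fold and a median of 0.45. Of the 6 higher, 3 reached the floor through the library with dox alone, and the lower gene through the other library alone. Where both values were at least 50, 3 of 26 genes were higher and 0 lower, against 4.92% and 3.24% of all such genes. Gab1, which encodes a docking protein of MET and other receptors, stood at 1007 and 2156, 2.13-fold higher with dox. The docking protein gene Bcar1 stood at 66 and 348, and the PI3 kinase subunit genes Pik3cb and Pik3r1 at 108 and 283 and at 44 and 110. The small GTPase gene Rras stood at 23 and 110. The remaining called genes were Irs2, at 17 and 92, and the only lower one, the docking protein gene Dok1, at 60 and 20, both named after their values were seen. The general adaptor genes Grb2, at 300 and 350, and Shc1, at 383 and 376, were within 2-fold and were named after their values were seen.

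Negative regulators of the receptors had 3 of 25 genes at the floor higher and 1 lower, and 21 were within 2-fold, with a median of 0.20. Of the 3 higher, 2 reached the floor through the library with dox alone, and the lower gene through the other library alone. Where both values were at least 50, 1 of 20 genes was higher and 0 lower, against 4.92% and 3.24% of all such genes. Errfi1, which encodes an inhibitor of the EGF receptor family, stood at 48 and 206, 3.72-fold higher with dox. The lipid phosphatase gene Inppl1 stood at 191 and 490 and Socs5, an EGF receptor regulator gene, at 8 and 62. Spry2, a feedback inhibitor gene of FGF signalling, stood at 148 and 37, 3.36-fold lower.

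**Figure D5:**
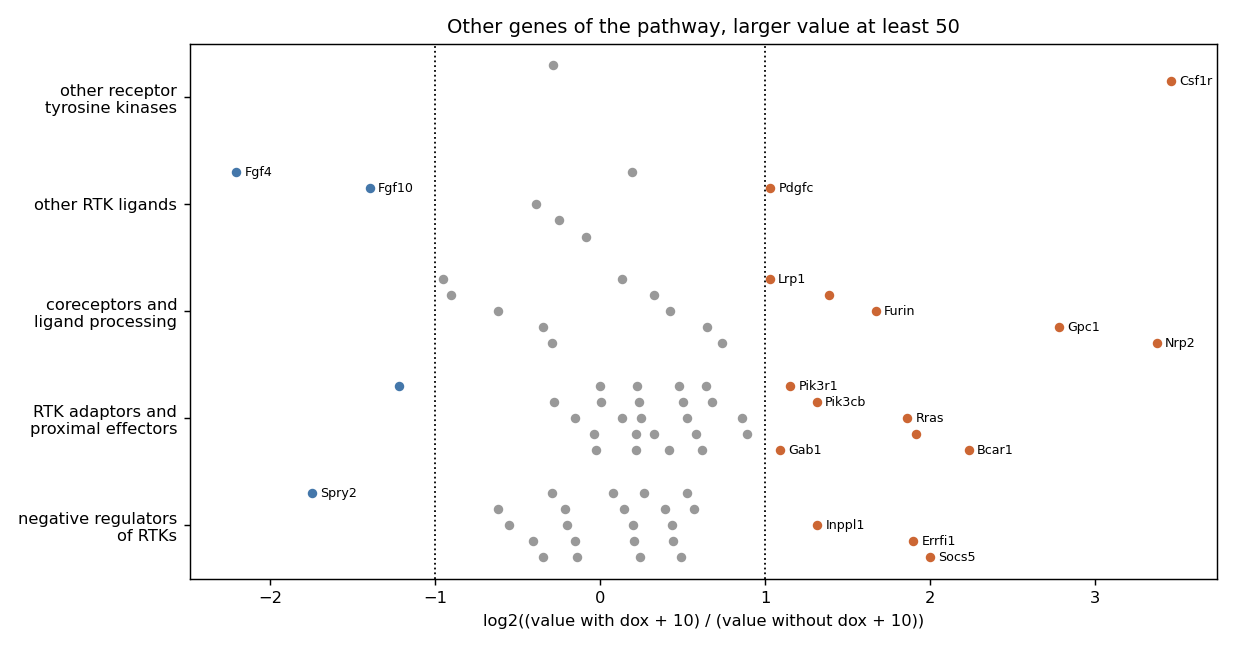
Log2 ratio, dox over no dox, of other genes of the pathway with a larger value of at least 50, by list. Orange points are at least 2-fold higher with dox, blue points at least 2-fold lower and grey points within 2-fold. Csf1r and Nrp2 lie farthest to the right and Fgf4 farthest to the left.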

How the data were processed

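Per the labels' protocols, TRIzol RNA went into TruSeq RNA libraries for a NextSeq 500. The submitters' processing notes name bcl2fastq, Bowtie2, RSEM and mm10. The versions, annotation and normalization used by the authors are not stated there. The deposited values were taken as a score that the authors had normalized and rounded, rather than as counts: 75.5% of sorted positions held equal values in both libraries (tolerance 0). Such values keep no depth.

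A pseudocount of 10, a floor of 50 on the larger value and a 2-fold threshold were used. With 1 library per group no test was made. Every gene at the floor was named, and up to 4 genes past 2-fold in each other list, those with the largest values first, with ties kept. Genes and lists were chosen with earlier results of these data known, and 1 gene was left out of the other lists. The longest transcripts came from GENCODE M21, which matched all 39 genes, and the length trend was removed with lowess (fraction 0.3). Steps were tested on simulated counts, with known changes only in genes of high mean value. Most genes called here had lower means, so that test does not cover them. The steps used statsmodels 0.14.6, scipy 1.17.1, pandas 2.3.3 and numpy 2.4.6 under Python 3.11.15.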

Additional observations from a re-analysis of the deposited data

How the results depend on the processing

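No paired analysis was possible because there was 1 library per group, so no library could be left out either, and depth limits are unknown. Values below are for the receptor, ligand and IGF binding protein genes, with shares over all genes beside them. Where the former differ from those reported, the cause was not tested unless fewer genes entered. With a pseudocount of 1, 1 ligand was lower, against 7.11% of all genes at the floor. With a pseudocount of 50, 6 genes were higher and 1 lower (receptors 3 and 0), and 1 IGF binding protein was higher, with a median of 0.90 for that group. Over all genes at the floor 5.83% were then higher and 2.0% lower. With no floor, 2 IGF binding proteins were lower, against 5.84% of all 13632 genes that then entered. The median of the IGF binding proteins over 6 genes was 0.0015. With a floor of 250, 7 genes were left, 2 higher (both receptors) and 1 lower, with 0 receptors lower, 0 ligands higher and 0 IGF binding proteins higher. Over the 3118 genes at that floor 9.56% were higher and 4.71% lower. The medians were then 0.043 for the 7 genes, 0.043 for receptors, 0.11 for the single ligand and −3.01 for the single IGF binding protein, a reversed sign. With the length trend removed 2 receptors were lower, against 5.02% of all genes with a length. Without genes listed at 0 in either library, 1 IGF binding protein was higher and the median of the 2 left was −0.75, also reversed. Over the 8507 genes then left 8.83% were higher. At a 1.5-fold threshold 5 of the 19 genes were lower, 3 of them receptors and 1 a ligand, against 17.7% of all genes at the floor. At 4-fold 3 genes were higher and 1 lower (receptors 2 and 0), with 0 ligands and 1 IGF binding protein higher. Over all genes at the floor 3.11% were then higher and 0.644% lower. Setting the median of all genes to 0 or using equal sums moved none of the counts of these groups by over 1.5 times and none of their medians by over 1.5-fold.

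Of the 19 genes at the floor, 6 of 10 higher genes, 1 of 2 lower genes and 5 of 7 genes within 2-fold had the same call under both other pseudocounts, both scalings and the length correction. Over all genes, 789 were higher and 469 lower, against 498 and 171 with a pseudocount of 50, 298 and 147 with a floor of 250, 1255 and 796 with none, 1425 and 1511 at 1.5-fold and 266 and 55 at 4-fold. In the other lists of the pathway, the ligand median of −0.25 became 0.16 with no floor and 0.021 with the length trend removed. The median of negative regulators, 0.20, became −0.082 with the length trend removed, and that of other receptor tyrosine kinases, 1.59, became −0.29 over 1 gene with a floor of 250.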
